A study of Ovis aries with 32 samples.

Results

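The complement genes of adipose cells described here are CFD, C3, C7, C1S, C1R, CFB, CFI, SERPING1 and CD59, taken by gene name from a table of RNA-seq values of cultured sheep perirenal fat cells. Of these 9 genes, 7 had a row of their name, with 9 transcripts, among 21271 genes and 35219 transcripts in all. No row carried the names C7 or CFI, and both are not analysed here. Of the 7 genes with a row, 6 reached 10 normalized reads in 4 or more libraries of a fit, the filter on low values, and CFD did not.

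The 32 libraries came from preadipocytes of the perirenal fat of near-term sheep fetuses, sequenced before and after differentiation in culture. The groups were control males (MC), control females (FC), growth-restricted males (MFGR) and growth-restricted females (FFGR), each with 4 libraries as preadipocytes and 4 after differentiation (the same names with a final D: MCD, MFGRD, FCD, FFGRD). The ewes of growth-restricted fetuses had been kept in hot surroundings while pregnant, and control ewes had not. All cells had been isolated from the tissue and grown in culture, so the libraries do not show the fat depot itself. Nothing in the labels says that the 4 libraries of a group came from separate animals, so p-values measure the spread between these libraries, which may be technical. The comparisons ask how differentiation, growth restriction and sex bear on these genes.

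Complement is a cascade of proteins that tags and lyses targets. C1R and C1S are the serine proteases of the C1 complex, which starts the classical pathway, and SERPING1 (C1 inhibitor) blocks them. C3 is the central component on which all pathways converge. CFB (factor B) joins it in the alternative pathway and is then cut by CFD (factor D), which forms the convertase. CD59 on the cell surface blocks the membrane attack complex. CFD is also known as adipsin, a protein secreted by fat cells of rodents and humans, and C3 is the precursor of a fragment described as stimulating triglyceride synthesis in adipocytes.

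In the Oar_rambouillet_v1.0 build the proteases sit side by side. C1R (ENSOARG00020022383) lies on chromosome 3 from 224147134 to 224157172, and C1S (ENSOARG00020022422) on the same chromosome from 224177245 to 224188024, 20.1 kb beyond it. C3 (ENSOARG00020016763) lies on chromosome 5 from 15986987 to 16023149, and CFD (ENSOARG00020012504) on chromosome 5 from 45524337 to 45526519. CFB (ENSOARG00020009870) lies on chromosome 20 from 29241535 to 29247555. The regulators share chromosome 15, with CD59 (ENSOARG00020011000) from 69385127 to 69412762 and SERPING1 (ENSOARG00020012257) from 87138030 to 87151612. Values below are normalized reads of a gene, the sum of its transcripts, and were not divided by transcript length, so levels are compared between libraries and not between genes.

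The normalized values of a library summed to 9.52 to 21.22 M, which corresponds to approximately 7.79 to 21.3 M reads, and 1 read was worth 0.696 to 1.80 normalized reads. By average linkage, 7 libraries clustered apart from the other 25 (FFGRD replicate 3, both FFGR replicates 2 and 3, FC replicate 2, MCD replicate 4, and replicate 1 of MFGR and MFGRD). In these 7 libraries the log2 value of a transcript fell more steeply with the logarithm of its genomic span, with a slope of -1.5 to -1 against -0.914 to -0.041 in the rest. The adipocyte markers followed the labels, since 8 of 8 were called higher after differentiation, with log2 fold changes of 9.55 for FABP4, 6.82 for ADIPOQ, 5.28 for PLIN1, 5.12 for LIPE, 4.02 for CEBPA, 3.48 for CIDEC, 2.70 for LPL and 2.26 for PPARG. ADIPOQ, which encodes adiponectin, had a median of 11.7 normalized reads in preadipocytes and 1197 in differentiated cells. One culture stood out, because FCD replicate 4 had 8.59 normalized reads of ADIPOQ, within the preadipocyte range of 0 to 215.7. The leukocyte gene PTPRC was at 0 in 20 libraries and reached 55.8 normalized reads in FFGR replicate 4 alone, where C1QA also peaked at 53.7.

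Differentiation was accompanied by lower levels of all 6 complement genes that could be tested over the 4 donor groups. The log2 fold change was -3.50 ± 0.45 (SE) for CFB, -3.43 ± 0.48 for C3, -2.19 ± 0.32 for C1R, -1.95 ± 0.34 for C1S, -1.51 ± 0.23 for SERPING1 and -0.71 ± 0.20 for CD59. In the limma fit of the 32 libraries the adjusted p-values were 3.0e-07 for CFB, 1.6e-06 for C3, 2.3e-06 for C1R, 3.2e-05 for C1S, 4.2e-06 for SERPING1 and 0.0049 for CD59. Of all 12737 genes tested, 27.9% were called and 15.2% were called lower, at an adjusted p-value below 0.05 and a fold change above 1.5. The median log2 fold change of the 6 genes was -2.07, beside 0.03 for all genes tested. The 6 calls were made in every alternative that was tried and without each library in turn. In bulk libraries such as these, fewer cells of a type and less RNA per cell cannot be told apart.

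**Figure D1:**
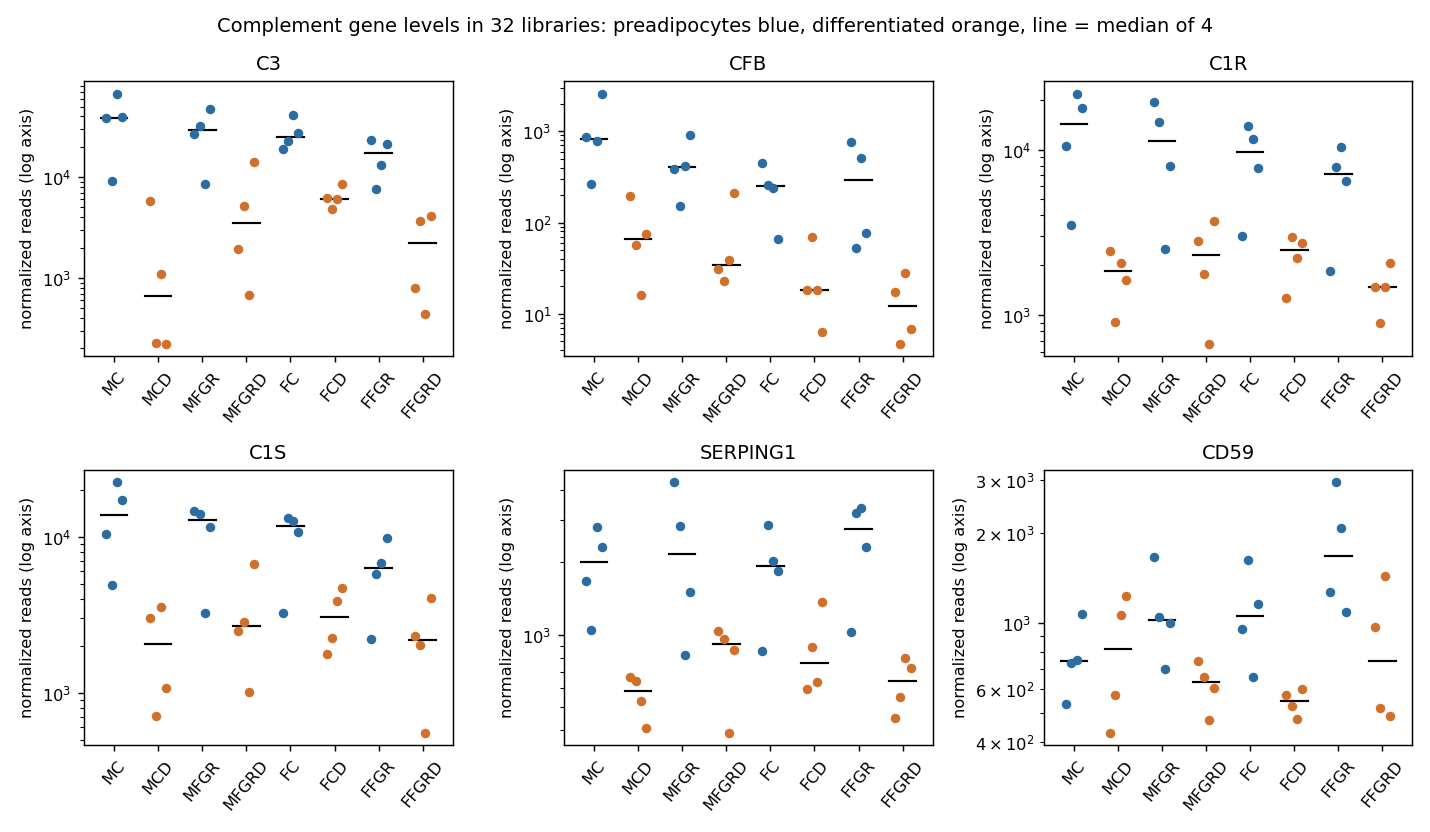
Normalized reads (log axis) of 6 complement genes in each of 32 libraries, in 8 groups of 4, with preadipocytes in blue, differentiated cells in orange and the median of each group as a line. C3 lay between 7564 and 67272 in the preadipocyte libraries and between 222 and 13955 in the differentiated ones, while the CD59 values of MC and MCD overlapped.

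C3, the hub of the cascade, had 38126, 9076, 67272 and 39509 normalized reads in MC replicates 1 to 4, and 5799, 225, 1087 and 222 in MCD replicates 1 to 4. The MC and MCD libraries did not overlap, although MCD replicate 1 was far above the other MCD libraries. In MFGR it had 26503, 32276, 8622 and 47287 normalized reads, and in MFGRD 1951, 5122, 679 and 13955. MFGRD replicate 4 exceeded MFGR replicate 3, so these groups overlapped. In FC it had 19176, 22777, 40785 and 27546 normalized reads, and in FCD 6224, 4816, 5991 and 8542. In FFGR it had 23204, 7564, 13275 and 21372, and in FFGRD 792, 3693, 443 and 4133. Neither of the female pairs of groups overlapped. The highest FCD value belonged to replicate 4, the culture with ADIPOQ at its preadipocyte level. By group mean the order among preadipocytes was MC (38496 ± 23768, SD, n = 4), MFGR (28672 ± 15981), FC (27571 ± 9453) and FFGR (16354 ± 7277), and the ranges of neighbours in that order overlapped. Among differentiated cells the order was FCD (6393 ± 1559, SD, n = 4), MFGRD (5427 ± 5985), FFGRD (2265 ± 1916) and MCD (1833 ± 2675), and here too the ranges of neighbours overlapped.

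CFB, the factor that pairs with C3 in the alternative pathway convertase, had 870, 262, 783 and 2591 normalized reads in MC replicates 1 to 4 and 196, 57.3, 16 and 75.7 in MCD. All MCD values lay below all MC values. In MFGR it had 390, 151, 416 and 901 normalized reads, and in MFGRD 30.5, 22.6, 38.7 and 212. The value of 212 in MFGRD replicate 4 was the only one in that group above an MFGR library. FC had 444, 258, 242 and 65.6 normalized reads of CFB, and FCD 18.2, 69.6, 18.3 and 6.34. FFGR had 770, 52.9, 512 and 77.3, and FFGRD 17.4, 4.67, 28.1 and 6.72. The FFGR and FFGRD libraries did not overlap, whereas FCD replicate 2 lay just above FC replicate 4. FCD replicate 4 and FFGRD replicates 2 and 4 held fewer than 10 normalized reads of CFB.

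C1R had 10500, 3499, 21782 and 17879 normalized reads in MC replicates 1 to 4 and 2436, 912, 2063 and 1631 in MCD. Its neighbour C1S had 10350, 4905, 22270 and 17079 in the same MC libraries and 3033, 711, 3531 and 1069 in MCD. For both proteases MC replicate 2 was the lowest MC library and MCD replicate 2 the lowest MCD library. In MFGR, C1R had 19236, 14765, 2496 and 7919 normalized reads, against 2808, 1785, 671 and 3723 in MFGRD. C1S had 14478, 13939, 3258 and 11441 in MFGR, against 2491, 2853, 1012 and 6690 in MFGRD. Replicate 3 was the lowest library of both genes in both groups, and for both genes MFGRD replicate 4 exceeded MFGR replicate 3. In FC, C1R had 2996, 13936, 11534 and 7751 normalized reads, against 1269, 2968, 2229 and 2715 in FCD, all below the FC values. C1S had 3254, 13055, 12608 and 10722 in FC, against 1760, 2235, 3853 and 4681 in FCD. FC replicate 1 was the lowest FC library for both genes. In FFGR, C1R had 1843, 7881, 10414 and 6456 normalized reads, against 1486, 894, 1477 and 2056 in FFGRD. C1S had 2214, 5797, 6771 and 9834 in FFGR, against 2325, 2013, 556 and 4015 in FFGRD. FFGR replicate 1 was low for both proteases, and its C1S value lay below that of FFGRD replicate 1.

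The regulators had the smallest log2 fold changes of the 6 genes. SERPING1, the inhibitor of C1R and C1S, had 1678, 1044, 2786 and 2310 normalized reads in MC and 666, 639, 529 and 410 in MCD. In MFGR it had 4294, 2831, 824 and 1507, and in MFGRD 1038, 960, 392 and 864. MC and MCD did not overlap, while 3 MFGRD libraries lay above MFGR replicate 3. In FC it had 859, 2841, 2016 and 1837 normalized reads, and in FCD 596, 890, 638 and 1372. In FFGR it had 1022, 3186, 3372 and 2303, and in FFGRD 449, 552, 803 and 727. FFGR and FFGRD did not overlap, and FCD replicate 4 was again the highest FCD library. That library was also the highest of FCD for C1S and CD59. It was not the highest for C1R, and for CFB it was the lowest of FCD, at 6.34 normalized reads.

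CD59, which protects cells from the membrane attack complex, had 535, 732, 752 and 1068 normalized reads in MC and 429, 575, 1064 and 1224 in MCD. These ranges overlapped, with MCD holding both the lowest and the highest value. In MFGR it had 1662, 1046, 700 and 997, and in MFGRD 746, 661, 474 and 605. In FC it had 951, 1619, 661 and 1151, and in FCD 572, 525, 475 and 600.5. In FFGR it had 1265, 2948, 2067 and 1082, and in FFGRD 966, 519, 1436 and 488. Only FC and FCD did not overlap for CD59. The 7 libraries that clustered apart came from 6 groups, and in each they held the highest CD59 values of the group. Within preadipocytes CD59 was related to the span slope with r = -0.855 (permutation p adjusted over 12 relations 0.00024) and rho = -0.729, and in differentiated libraries with r = -0.611 (adjusted permutation p = 0.0352). Without the libraries that clustered apart r was -0.36 and -0.072. The part of the span slope in the CD59 difference was tested only as a covariate, where the call over all groups was kept.

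Counted library by library, 5 of the 6 genes had all 4 MCD values below all 4 MC values, a pattern shown by 8.46% of all genes tested there. The count was 3 of 6 in the control females (5.15% of genes), 0 of 6 in the growth-restricted males (6.31%) and 3 of 6 in the growth-restricted females (6.3%). Between preadipocyte and differentiated libraries of the same number, C3, C1R, CFB and SERPING1 were lower after differentiation in 16 of 16 pairs, C1S in 15 and CD59 in 14. The share of all genes with such counts was not computed, so these counts are a description only. In FFGR the numbers did not pair the libraries.

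Within control males 5 of the 6 genes were called lower after differentiation, where 7.53% of 11605 genes were called and 4.21% called lower. The log2 fold changes were -5.37 ± 1.02 (SE) for C3 (adjusted p = 0.014), -3.73 ± 0.80 for CFB (0.023), -2.80 ± 0.62 for C1S (0.025), -2.73 ± 0.56 for C1R (0.019) and -1.73 ± 0.33 for SERPING1 (0.014), by limma with Benjamini-Hochberg adjustment. CD59 differed by 0.01 ± 0.38 and was not called. The 5 calls dropped to 2, C3 and SERPING1, without MCD replicate 4, which clustered apart, and with the span slope as a covariate. Without MC replicate 3 only C3 was called, and without MCD replicate 2 only SERPING1. All 5 were kept without MC replicate 2 and without MCD replicate 1.

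In control females none of the 6 genes was called, where 0.43% of 11634 genes were (1468 genes at an unadjusted p below 0.05). All 6 differences were negative, from -3.31 ± 0.77 for CFB to -0.94 ± 0.31 for CD59, with adjusted p-values of 0.053 to 0.33. C3 came nearest, at -2.08 ± 0.37. With the replicate number as a block, which pairs the libraries in this group, CFB (adjusted p = 0.043), C3 (0.043) and C1R (0.045) were called. Under that block 197 of the 11634 genes tested were called.

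In growth-restricted males none of the 6 was called in the unpaired fit, where 3.38% of 11624 genes were (1819 at an unadjusted p below 0.05). The differences ran from -2.96 ± 0.91 for C3 to -0.77 ± 0.31 for CD59, with adjusted p-values of 0.078 to 0.27. With the replicate block, 6 of 6 were called, CFB at an adjusted p of 0.0037, C3 at 0.0061, C1R at 0.011, SERPING1 at 0.014, C1S at 0.014 and CD59 at 0.021. Under that block many more genes of all kinds were called, 2081 of the 11624 tested.

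In growth-restricted females none of the 6 was called, where 2.67% of 11599 genes were (1799 at an unadjusted p below 0.05). CFB differed by -4.03 ± 0.97, C3 by -3.29 ± 0.78, C1R by -1.98 ± 0.56, SERPING1 by -1.86 ± 0.44, C1S by -1.59 ± 0.68 and CD59 by -1.14 ± 0.48. The adjusted p-values were 0.066 to 0.31. The direction was the same for each gene as over all groups.

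**Figure D2:**
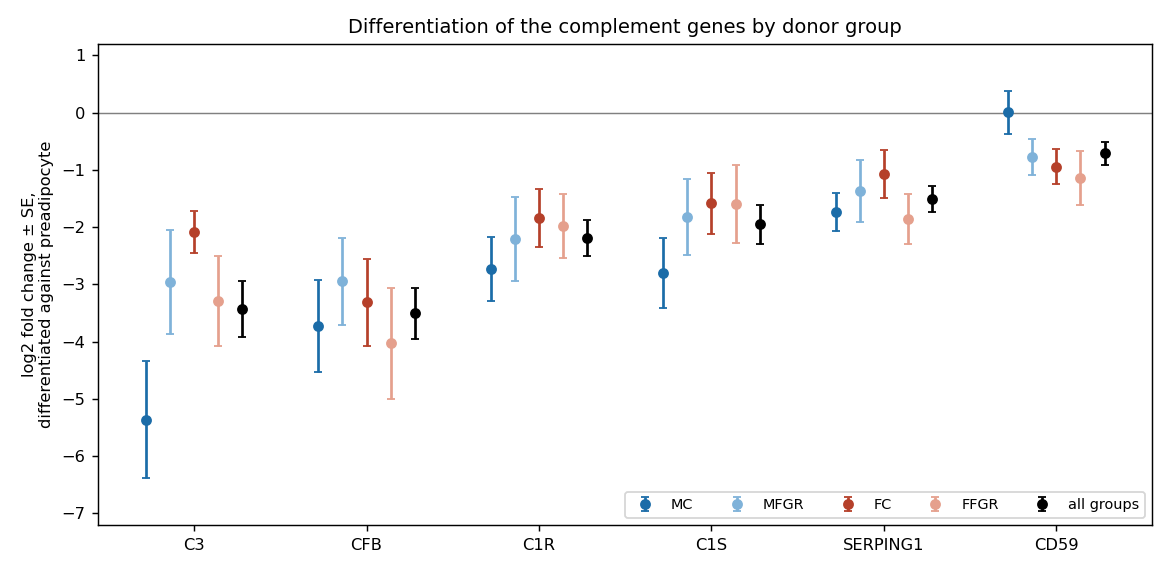
Log2 fold change (differentiated against preadipocyte cells, vertical axis) of 6 complement genes, with the SE as bars, in each of 4 donor groups and over all groups (black). The points lie below 0 except CD59 in MC, at 0.01, and C3 shows the widest spread between groups, from -5.37 in MC to -2.08 in FC.

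No gene of any kind was called for a difference in the response to differentiation between groups. This was tested for MFGR against MC, for FFGR against FC and for males against females, with 195, 40 and 116 genes at an unadjusted p below 0.05 and 0% called in each. With the replicate block these numbers were 1708, 90 and 536, and again no gene was called. For C3 the response in MFGR differed from that in MC by 2.40 ± 1.5 on the log2 scale (SE, unadjusted p = 0.13, adjusted 0.97 by limma). The wider gap of C3 in MC, seen in the plot of fold changes, was thus not past the threshold of the test of that difference.

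Growth restriction and sex gave no calls within either stage, for these genes or any other (0% called). Genes at an unadjusted p below 0.05 numbered 342 for growth restriction in preadipocytes, 95 for growth restriction in differentiated cells, 538 for sex in preadipocytes and 93 for sex in differentiated cells. CFB was the member with the largest sex difference. In males it was higher by 1.46 ± 0.64 on the log2 scale in preadipocytes (unadjusted p = 0.036, adjusted 0.82 by limma) and by 1.80 ± 0.60 in differentiated cells (unadjusted p = 0.0088, adjusted 1). Neither passed the adjustment. CD59 was higher by 0.60 ± 0.26 with growth restriction in preadipocytes (unadjusted p = 0.035, adjusted 0.81 by limma) and differed by -0.58 between male and female preadipocytes (unadjusted p = 0.038, adjusted 0.82). The preadipocyte libraries that clustered apart held the highest CD59 values of their groups. They were MFGR replicate 1, FFGR replicates 2 and 3 and FC replicate 2, an uneven split over growth and sex. The other differences of the members in these 4 comparisons lay between -1.01 (C3 in differentiated cells, males against females) and 0.61 (C1S in preadipocytes, males against females) on the log2 scale.

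CFD, the adipsin gene, was read in a handful of reads per library in both stages. It was listed at 0 in 9 libraries, and 24 libraries did not exceed what 3 reads are worth. In 31 libraries it was below 10 normalized reads, and the highest value was 11 in MFGR replicate 1, about 15.8 reads. Summed over the series it had about 70 reads, 38 in preadipocytes and 32 in differentiated cells. No fold change is given, since both stages lie near the floor. The summed reads of CFD did not rise with differentiation, and at this depth a small change could not be seen. In the same set of libraries ADIPOQ reached 13421 and FABP4, a fatty acid binding protein of adipocytes, 167630 normalized reads.

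CFB, CD59, C3 and C1S have 1 listed transcript each, so their transcript results repeat those of the gene. C1R and SERPING1 have 2 each, of which 1 carries most of the reads. All 8 transcripts tested were called lower over all groups, where 20.4% of 19469 transcripts were called and 11.1% called lower. C1R-201 carried most reads of C1R and had a log2 fold change of -2.18 ± 0.32, and the minor C1R-202, with 0 to 427.5 normalized reads, one of -3.16 ± 0.81 (limma, adjusted p = 0.0041, and -4.21 with a pseudocount of 0.1). SERPING1-202 had a log2 fold change of -1.51 ± 0.23, and SERPING1-201, with at most 36.7 normalized reads, one of -1.65 ± 0.54 (adjusted p = 0.023).

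Other genes of the complement system were looked at from lists of 52 genes by role, of which 31 had a row and 9 passed the filter. Among genes that start the cascade, 2 of 3 tested were lower and 1 was higher, beside 27.9% of all genes called and 15.2% called lower. COLEC12, a scavenger receptor with a collectin domain, had a log2 fold change of -3.22 ± 0.37, and MASP1, a protease of the lectin pathway, one of -2.40 ± 0.44. PTX3, a pentraxin that binds C1q, rose by 7.85 ± 0.46 (limma, adjusted p = 1.7e-13), from a median of 150 normalized reads to 32314. Among components, C2, which is cut by C1s to form the classical convertase, fell by 3.08 ± 0.40, and C6 (0.66 ± 0.50) and C8G (-0.78 ± 0.37) were not called. The regulator SUSD4 fell by 2.02 ± 0.46, from medians of 9.14 to 0.582 normalized reads. Of the receptors, ITGAX, a chain of complement receptor 4, fell by 2.34 ± 0.59, and C1QBP (0.50 ± 0.22) was not called. C1QA, C1QB and C1QC, the recognition subunits that C1R and C1S attach to, had medians under 1 normalized read in both stages.

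**Figure D3:**
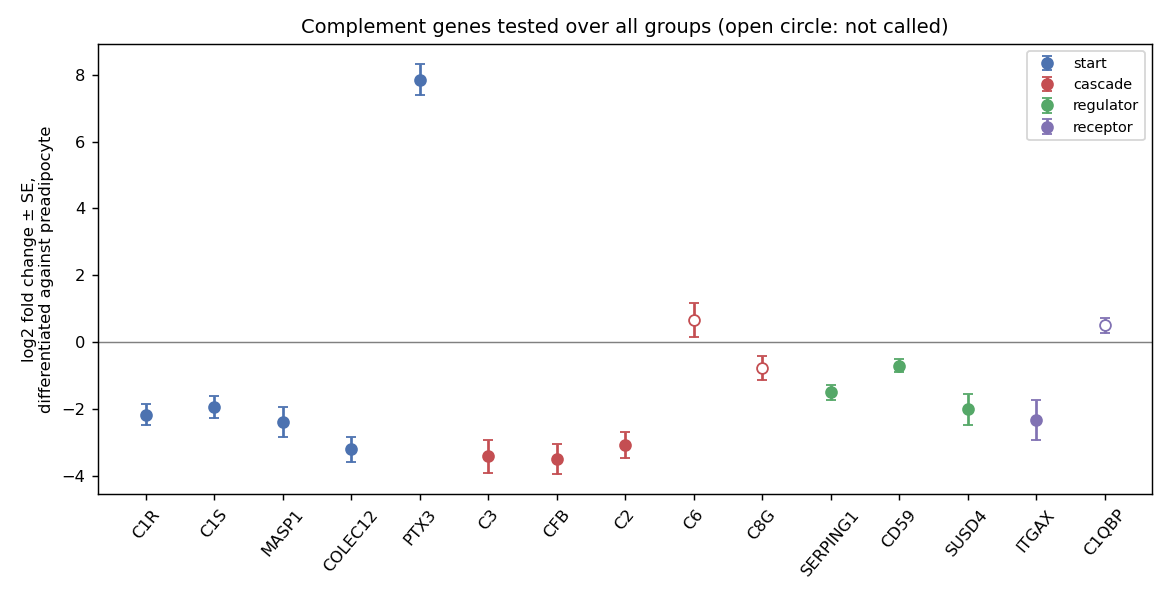
Log2 fold change over all groups (differentiated against preadipocyte cells) of the 6 members and 9 other complement genes that were tested, with the SE as bars, coloured by role. Filled circles were called and open circles were not, and PTX3, at 7.85, is the only called gene above 0.

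Markers of other cell types were read beside these falls, and their counts stand against the same shares of all genes (27.9% called, 15.2% called lower). Among stromal genes 3 of 8 tested were lower (log2 fold changes of -0.61 for LUM, -1.28 for DCN and -0.82 for PDGFRB) and THY1 was higher by 1.65, while COL1A1 differed by -0.76 and was not called. The summed level of the list was 171634 to 1296034 normalized reads in preadipocytes and 92562 to 947732 in differentiated cells. Among leukocyte genes CD14 rose by 1.86 and CD163 by 2.85 on the log2 scale, 2 of 4 tested, and none was called lower. CD68 (-0.81) and FCER1G (0.15) were not called. The summed level of this list was 92.3 to 1152 normalized reads in preadipocytes and 128 to 955 in differentiated cells. Of the endothelial genes KDR fell by 1.43 on the log2 scale, 1 of 4 tested, and TEK (0.06) was not called. Neither of the 2 mesothelial genes tested was called, WT1 at 0.52 and KRT19 at 0.04. The summed levels were 10.1 to 92.7 and 5.84 to 286 normalized reads for the endothelial list, and 2.03 to 156 and 0.70 to 127 for the mesothelial list. The defining leukocyte gene PTPRC had a median of 0 in both stages. Without FFGR replicate 4 all 6 complement genes were still called over all groups, but leaving out 1 library cannot show the part of other cell types. That part in the falls was not tested.

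Across the 16 differentiated libraries, C3 was lower where ADIPOQ was higher. Pearson's r on log2 values was -0.71 (permutation p = 0.0014, adjusted over 6 genes 0.0086) and Spearman's rho -0.67 (adjusted permutation p = 0.029). For rho the adjusted permutation p was 0.13 without the 2 libraries farthest from the ADIPOQ median. Without the 2 libraries farthest from the ADIPOQ median r was -0.75, in control libraries -0.68 and in growth-restricted libraries -0.76. C1S (r = -0.55, rho = -0.41), SERPING1 (r = -0.55, rho = -0.42) and CD59 (r = 0.55, rho = 0.47) each had an adjusted permutation p of 0.040 for r, and 0.17 for rho. Without the libraries that clustered apart r was 0.41 for CD59 (adjusted permutation p = 0.20) and -0.48 for C1S (0.19). The rho of CD59 was then 0.10. For SERPING1 the relation depended on the libraries used. Its r was -0.26 without the 2 libraries farthest from the ADIPOQ median, but -0.765 without the libraries that clustered apart (adjusted permutation p = 0.015), and it was -0.92 in control and -0.080 in growth-restricted libraries. Each of these sets held both sexes, and ADIPOQ was 1233 to 13421 in MCD and 8.59 to 2356 in FCD. A difference between groups was not separated from a relation within them. C1R (r = -0.33) and CFB (r = 0.16) showed no relation past the threshold (adjusted permutation p = 0.26 and 0.55). Among these libraries the span slope was related by r to C3 (r = 0.59), C1S (r = 0.63) and CD59 (r = -0.61) past the threshold, and not to C1R, CFB or SERPING1. By rho only CD59 passed (rho = -0.70, adjusted permutation p = 0.020). For C3 rho was 0.47 (adjusted permutation p = 0.20) and for C1S 0.38 (0.36). The relation of the span slope with ADIPOQ had r = -0.44 (permutation p = 0.085). Given the span slope, r with ADIPOQ was -0.62 for C3, -0.39 for C1S, 0.39 for CD59 and -0.72 for SERPING1.

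**Figure D4:**
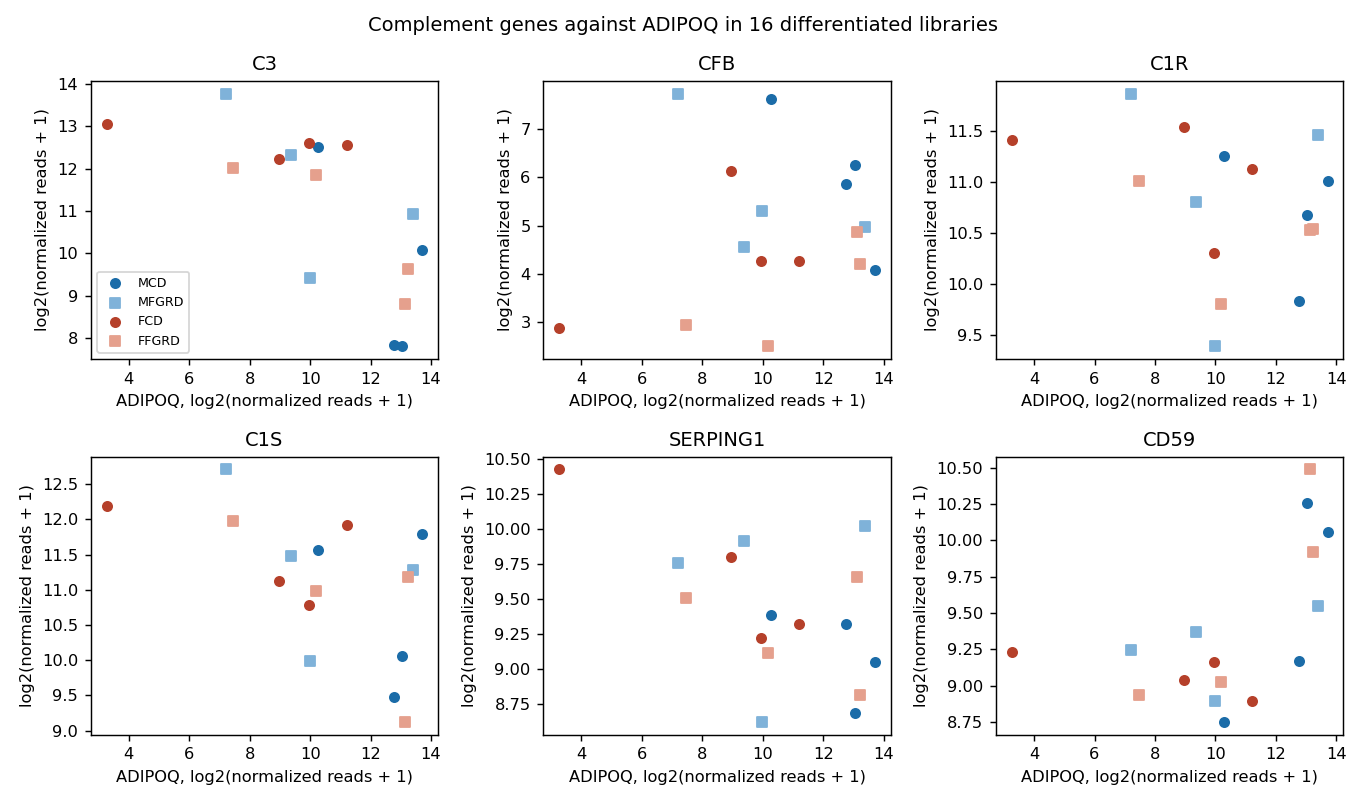
Log2(normalized reads + 1) of 6 complement genes against that of ADIPOQ in 16 differentiated libraries, coloured by group. C3 declines with ADIPOQ (r = -0.71). For CD59 r is 0.55, and 0.41 without the libraries that clustered apart, which is not past the threshold. The point at the far left of each panel is FCD replicate 4.

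Several of the members varied together within a stage. Among 30 pairs tested (15 in each stage), C1R and C1S had r = 0.94 and rho = 0.94 in preadipocytes (permutation p = 1e-05, the smallest that 100000 permutations give, adjusted 0.0003) and r = 0.71 and rho = 0.73 in differentiated libraries (adjusted permutation p = 0.014). Without the 2 libraries farthest from the C1S median r was 0.90 and 0.74, and without those that clustered apart 0.98 and 0.85. C1R and SERPING1, the protease and its inhibitor, had r = 0.85 (rho = 0.73) and 0.64 (rho = 0.65), with adjusted permutation p-values of 0.0011 and 0.033. C3 and C1S had r = 0.69 (rho = 0.72) and 0.81 (rho = 0.73), with adjusted permutation p-values of 0.017 and 0.0015. CFB was related to no other member past the threshold in either stage.

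Over all 32 libraries, which share the difference between stages, the genes closest to each member among 12737 were found by Pearson's r of log2 values, as a description. C1R was closest to C1S (r = 0.919) and SERPING1 (0.917). C1S was closest to CROCC2 (0.947) and then C1R. C3 was closest to DNM1 (0.947) and PRSS35 (0.942), SERPING1 to C1R and GLB1L (0.906), CFB to RAVER2 (0.871) and RSPO1 (0.849), and CD59 to NTPCR (0.902) and ATP23 (0.895).

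Taken over the donor groups together, C1R fell more than its inhibitor. The log2 fold changes of C1R and SERPING1 were -2.73 and -1.73 in MC, -1.84 and -1.07 in FC, and -2.20 and -1.37 in MFGR. In FFGR they lay closest, at -1.98 and -1.86. The log2 ratio of C1R to SERPING1 was 2.05 ± 0.60 (SD, 16 libraries) in preadipocytes and 1.37 ± 0.53 in differentiated cells, lower by 0.68 (permutation within donor groups, adjusted over 3 ratios p = 0.0024). The ratio of C1S to SERPING1 went from 2.13 ± 0.67 to 1.69 ± 0.92 (adjusted permutation p = 0.19), and that of C1R to C1S from -0.08 ± 0.37 to -0.32 ± 0.71 (adjusted permutation p = 0.26). These ratios depend on transcript length and only their change is read. They were chosen after the data had been seen, and the p-values do not account for that choice.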

How the data were processed

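The deposited signal is in normalized reads: the authors ran Salmon on Ensembl transcripts (Oar_rambouillet_v1.0) and scaled all 32 libraries with DESeq2. The steps of low values differ between transcripts, so whole reads could not be recovered and no count test was run. The fold change and p-value columns of the authors' own comparisons were not used. Members and lists were chosen with earlier results of these data known.

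Transcript values were summed per gene. limma 3.58.1 (R 4.3.3) with an empirical Bayes trend was run on log2(value + 1) of genes at 10 or more in at least 4 libraries of the fit, with Benjamini-Hochberg adjustment over all genes, and a call needed an adjusted p-value below 0.05 and a fold change above 1.5. Folds of low genes are understated on this scale. Each differentiation comparison within a donor group used its 8 libraries, growth restriction and sex used the 16 of a stage, and the rest the 16 or 32 concerned. Same-numbered libraries deviated together (lowest r 0.16 in MC, 0.30 in FC and 0.39 in MFGR), so the numbers were taken to pair the libraries there, but not in FFGR (lowest r -0.40). Permutation tests were two-sided with 100000 permutations (numpy 2.4.6). For correlations the libraries of a stage were shuffled across groups, and for ratios only within donor groups. Named genes were all members, and from the other lists those called in the comparison over all groups and the gene of the highest level. The scripts were tested on simulated data. Alternatives were a pseudocount of 0.1, quantile normalization, other filters, library weights, the span slope as a covariate, the replicate block, a single fit of 8 groups, the sexes and growth groups alone, and leaving out libraries. Leaving out FCD replicate 4 or FFGR replicate 4 was chosen after seeing the data. Depth was read from the smallest step of each library. Intervals were not computed from it, and values of a few reads carry counting error.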

Additional observations from a re-analysis of the deposited data

Results flagged for a closer look

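Of 48 sets of 4 libraries (6 genes in 8 groups), 2 held a library far from the others of its group on the scale of normalized reads, without a logarithm. Chance would set about 1 in 20 such sets apart if values were normally distributed, which was not checked. The rule was not applied to log2 values. C3 in MCD replicate 1 was at 5799 normalized reads, where the other MCD libraries lay between 222 and 1087, and that library also had the lowest ADIPOQ of its group, 1233 normalized reads. Without it the log2 fold change of C3 in control males was -6.35. CFB in MFGRD replicate 4 was at 212 normalized reads, where the others lay between 22.6 and 38.7, and that library had the lowest ADIPOQ of its group, 146 normalized reads. Without it CFB was called in MFGR. In the female groups the libraries with the lowest ADIPOQ, FCD replicate 4 and FFGRD replicate 4, were low in CFB, at 6.34 and 6.72 normalized reads. Whether ADIPOQ bears on these values was not tested within groups.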

How the results depend on the processing

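Over all groups the 6 genes were called lower in all settings, and so were the 8 transcripts wherever they were tested (7 under the filter of 20 CPM). With a pseudocount of 0.1 SERPING1-201 was at -2.88 and C1R-202 at -4.21. Calls within a donor group changed with the setting. With the span slope as a covariate the number of members called was 2 in MC, 1 in FC, 4 in MFGR and 5 in FFGR, and genes called numbered 363 in FC, 1610 in MFGR and 1952 in FFGR. Without the libraries that cluster apart it was 2 in MC and 1 in FC, with 447, 95 and 2 genes in MC, FC and FFGR. With library weights it was 6 in FC, 2 in MFGR and 6 in FFGR, with 2052, 1504, 1344 and 4138 genes in MC, FC, MFGR and FFGR, and 2 genes each for growth restriction and sex in preadipocytes. With the replicate block it was 3 in FC, 6 in MFGR and 1 in FFGR, with 1854, 197, 2081 and 182 genes in the 4 groups; the block changed no other call of a member. In FFGR, 2 of 4 preadipocyte libraries correlated best with their own number. A single fit of 8 groups gave 1 member in MFGR and 3 in FFGR, with 321, 654 and 1315 genes in FC, MFGR and FFGR. The main counts were 874, 50, 393 and 310 genes. A filter of 20 CPM gave 427, 11, 127 and 31, and over all groups 1764 genes and 1923 transcripts instead of 3556 and 3973. No filter beyond a value above 1 gave 29 genes in FC. Without FCD replicate 4 there were 26 genes in FC, and without FFGR replicate 4 there were 65 in FFGR.

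Leaving out each library gave 1 to 5 members in MC, 0 to 1 in FC and MFGR, and 0 to 2 in FFGR, with 311 to 1746, 0 to 95, 77 to 317 and 26 to 259 genes. FC had 0 genes without FCD replicate 3. Members were called in FC without FC replicate 2 (C3), in MFGR without MFGRD replicate 4 (CFB) and in FFGR without FFGR replicate 1 (SERPING1 and C1R). CD59 in MC reversed to -0.30 with the span slope and to -0.23 without the libraries that cluster apart, and ran from -0.23 to 0.28 without each library. The cause was not tested.

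The relation of C3 with ADIPOQ held in all settings by r. By rho it was lost without the 2 farthest libraries (adjusted permutation p = 0.13), without the libraries that cluster apart (0.082) and without FCD replicate 4 (0.12). For C1S r was -0.48 without the libraries that cluster apart, -0.55 under quantile normalization and -0.50 without FCD replicate 4, none past the threshold (adjusted permutation p = 0.19 and 0.051 for the former pair). For SERPING1 it was -0.26 without the 2 farthest libraries, -0.56 under quantile normalization and -0.30 without FCD replicate 4, but -0.765 (adjusted permutation p = 0.015; rho -0.73, 0.040) without the libraries that cluster apart. For CD59 it was 0.41 without the libraries that cluster apart and 0.52 under quantile normalization, neither past the threshold (adjusted permutation p = 0.20 and 0.055). The rho of CD59 was 0.10 without the libraries that cluster apart. For CFB it reversed to -0.045 without the 2 farthest libraries and to -0.10 without FCD replicate 4. Depth limits CFD and the low values of CFB.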
